A study of Mus musculus with 7 samples.

Results

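Gdf10, Clmp and Slc1a1 are 3 of the 35013 gene rows measured by RNA-seq in β-cells sorted from diabetic and lean mice, and they were chosen by their fall in β-cells that lack Aldh1a3. They hold ranks 1, 2 and 3 among the genes that fell in KO_db/db versus db/db, when genes were ordered by fold change and required to be called, to average at least 10 CPM (counts scaled to library size with TMM factors) over the 4 libraries and to have no overlap between the groups. The log2 fold changes just inside and just outside this choice were -4.87 for Slc1a1, -4.50 for Aldh1a3 itself and -3.85 for Rps13, a gene of the small ribosomal subunit. Over all 13486 genes tested in that comparison, whatever their level, the members ranked 7, 27 and 39 by the size of the fall.

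There were 7 libraries, each from 1 mouse by its label, in 3 groups. The KO_db/db group (n = 2) carried RIP-Cre Herr, 2 floxed Aldh1a3 alleles (Aldh1a3 fl/fl), a tdT fl/+ reporter and the Lepr db/db genotype, and Cre under a rat insulin promoter deletes Aldh1a3 in β-cells. The diabetic db/db controls (n = 2) were Aldh1a3 fl/+ and Lepr db/db, and the lean db/+ controls (n = 3) were Aldh1a3 fl/+ and Lepr db/+, each with RIP-Cre Herr and tdT fl/+, so that both control groups also carried Cre, the tdTomato reporter and a floxed Aldh1a3 allele. Adult mice of either sex were fasted before islets were isolated and dispersed for sorting. The study's methods describe gates for YFP and for the fluorescent ALDH substrate AldeRed and name no gate for these libraries, which carry tdTomato.

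Gdf10 encodes growth differentiation factor 10, also called BMP3b, a secreted ligand of the TGF-β superfamily whose closest relative is Bmp3. Ligands of this superfamily bind pairs of serine/threonine kinase receptors, which phosphorylate SMAD proteins, and secreted or membrane-bound antagonists limit this signal. Clmp encodes an adhesion molecule with immunoglobulin domains, a relative of the coxsackievirus and adenovirus receptor Cxadr, found at tight junctions of epithelia. Slc1a1 encodes EAAC1 (EAAT3), a sodium-driven transporter that carries glutamate, aspartate and cysteine into neurons and kidney cells, where cysteine feeds the synthesis of glutathione. Aldh1a3 oxidises retinaldehyde to retinoic acid and is known as a marker of failing β-cells.

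On GRCm38 (GENCODE M21), Gdf10 (ENSMUSG00000021943.7) lies on chr14:33923587-33937983, plus strand, spans 14.4 kb and has 3 exons in its coding transcript. Clmp (ENSMUSG00000032024.10) lies on chr9:40685962-40785319, plus strand, spans 99.4 kb and has 7 exons. Slc1a1 (ENSMUSG00000024935.11) lies on chr19:28835049-28913960, plus strand, spans 78.9 kb and has 12 exons. RefSeq promoter windows of GRCm38.p6 were matched for Gdf10 and Slc1a1, and the promoter set used held no entry for Clmp. They are shown because both genes were at or near the detection limit in lean β-cells and among the most raised in db/db β-cells, and because the deleted enzyme makes retinoic acid. Only bases upstream of the annotated start are printed, at chr14:33923337-33923586 for Gdf10 and chr19:28834885-28835048 for Slc1a1, both on the plus strand. Capitals mark matches to the motifs searched.
Gdf10: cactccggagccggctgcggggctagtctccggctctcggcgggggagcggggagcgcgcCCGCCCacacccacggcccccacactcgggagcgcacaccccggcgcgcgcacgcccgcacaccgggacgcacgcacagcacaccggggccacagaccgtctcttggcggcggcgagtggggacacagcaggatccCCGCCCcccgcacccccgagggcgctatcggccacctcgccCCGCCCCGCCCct
Slc1a1: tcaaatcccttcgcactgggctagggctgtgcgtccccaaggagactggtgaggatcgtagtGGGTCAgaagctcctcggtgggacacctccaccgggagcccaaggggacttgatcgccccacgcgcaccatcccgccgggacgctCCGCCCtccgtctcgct

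The windows, which run from 250 bases before to 50 after the RefSeq start, were searched on both strands for retinoid half-sites (AGGTCA, its variant GGGTCA, its variant AGTTCA and its variant GGTTCA), the GC box (GGGCGG), the E-box (CACGTG), the AP-1 site (TGACTCA and, on the other strand, TGAGTCA) and the cAMP response element (TGACGTCA). The Gdf10 window held 4 GC boxes, all on the minus strand, of which the last pair shares a base, and no other match. The Slc1a1 window held 1 half-site, GGGTCA, that began 188 bases before the RefSeq start, and 1 GC box. Of 32851 promoter windows of the same length, 43.7% held a retinoid half-site, 35.7% a GC box, 7.15% an E-box, 5.20% an AP-1 site and 1.79% a cAMP response element. A match here describes letters only. The printed stretches were 78.8% and 66.5% G and C.

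Library totals ran from 27496645 to 35852785 estimated counts with a median of 31355436, and 3 counts, taken as the detection floor, corresponded to 0.0721 to 0.123 CPM. TMM factors for CPM came from all 7 libraries. The 9 β-cell markers made up 24.8% to 38.6% of counts in each library. The 16 acinar markers made up 0.941% and 8.64% of counts in the KO_db/db libraries and at most 0.0320% in the others, with the higher share in KO_db/db replicate 1. Of the other marker lists, the summed level was 87.9 and 170 CPM for δ-cells in db/db against 378 to 2333 CPM in the other libraries, and 2098 and 2550 CPM for α-cells in db/db against 1060 to 1694 CPM elsewhere. Of the α-cell list, Ttr stood at 1925 and 1727 CPM in db/db and 502 to 674 CPM elsewhere, whereas Gcg, the glucagon gene that defines these cells, stood at 608 and 351 CPM in db/db, 1017 and 620 CPM in KO_db/db and 1088, 1178 and 378 CPM in db/+. Macrophage markers summed to 56.4 and 75.2 CPM in db/db against 21.6 to 57.0 CPM elsewhere, PP-cell markers to 154 to 904 CPM, ductal markers to 186 to 435 CPM, Schwann and neural markers to 33.2 to 64.5 CPM (Sox10 and Gfap at 0 in all libraries), endothelial markers to 7.21 to 45.9 CPM and stellate markers to 0.436 to 4.78 CPM. Lymphocyte markers summed to 1.24 and 3.15 CPM in db/db against 19.7 to 39.6 CPM elsewhere, of which Cd79a, a B-cell receptor subunit, made up 1.01 and 2.43 CPM in db/db and 19.5 to 39.5 CPM elsewhere. The part of these cell types in the members' levels was not tested. Y-linked genes gave 2911 counts in db/+ replicate 3 and 20 to 79 counts in each of the other libraries. By these counts only db/+ replicate 3 looked male, so sex was not balanced between db/+ and the other groups.

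Aldh1a3 followed the labels. It measured 4.93 and 7.90 CPM in KO_db/db, 99.3 and 195 CPM in db/db, and 0.205, 0.0727 and 0.584 CPM in db/+. The KO_db/db libraries were lower than both db/db libraries and higher than all db/+ libraries. Aldh1a3 fell by 4.50 (log2) in KO_db/db versus db/db (SE 0.43, edgeR's quasi-likelihood test, Benjamini-Hochberg adjusted p = 0.0445), and the call was lost without db/db replicate 1 (adjusted p = 0.0581).

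All 3 members showed one pattern, with 13.1 to 37.4 CPM in db/db β-cells and no more than 1.56 CPM in lean and in Aldh1a3-deleted β-cells. In db/db, Gdf10 measured 33.0 and 13.1 CPM (1115 and 547 counts). It measured 0.0814 and 0.0486 CPM in KO_db/db, which is 2 counts in each library, and 0.0819, 0.0364 and 0.137 CPM in db/+, or 2, 1 and 4 counts. The 5 low libraries thus lay at the detection floor, with db/+ replicate 3 alone above 3 counts, and their values overlapped.

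Clmp measured 26.2 and 20.5 CPM in db/db (884 and 854 counts). It measured 0.366 and 0.656 CPM in KO_db/db (9 and 27 counts) and 0.778, 0.0727 and 0.309 CPM in db/+ (19, 2 and 9 counts). KO_db/db and db/+ overlapped, and only db/+ replicate 2 lay under the floor.

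Slc1a1 measured 37.4 and 26.6 CPM in db/db (1263 and 1107 counts). It measured 0.489 and 1.56 CPM in KO_db/db (12 and 64 counts) and 0.205, 0.145 and 0.0687 CPM in db/+ (5, 4 and 2 counts). Here the 3 groups did not overlap, with KO_db/db between the other two and far closer to db/+. In these bulk libraries, fewer cells that express a gene and less RNA per cell cannot be told apart.

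**Figure D1:**
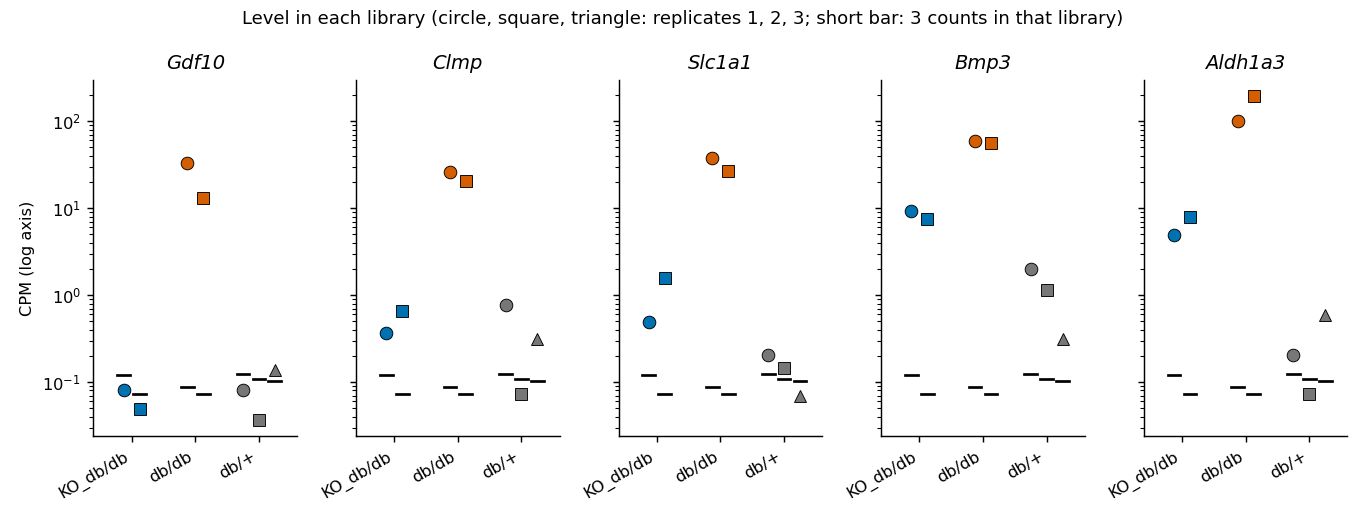
CPM (log axis) of Gdf10, Clmp, Slc1a1, Bmp3 and Aldh1a3 in each of the 7 libraries, by group, with a short bar at the level of 3 counts in each library. The db/db libraries lie above all others for each gene, Gdf10 lies around the bar in the other 5 libraries, and Slc1a1, Bmp3 and Aldh1a3 are higher in KO_db/db than in db/+.

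Expressed as group means, KO_db/db β-cells held 0.282% of the db/db level of Gdf10, 2.2% of that of Clmp and 3.19% of that of Slc1a1, against 4.36% for Aldh1a3 and 14.5% for Bmp3. The corresponding db/+ shares were 0.369%, 1.66%, 0.436%, 0.195% and 1.99%. The group means in db/db were 23.1 ± 14.1 CPM for Gdf10, 23.4 ± 4.0 CPM for Clmp and 32.0 ± 7.63 CPM for Slc1a1 (SD, n = 2). In KO_db/db they were 0.0650 ± 0.0232, 0.511 ± 0.205 and 1.02 ± 0.755 CPM (SD, n = 2), and in db/+ 0.0853 ± 0.0506, 0.387 ± 0.359 and 0.140 ± 0.0682 CPM (SD, n = 3).

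The replicates of a group differed by more than counting error for some members. Gdf10 was 2.51 times as high in db/db replicate 1 as in replicate 2 (95% exact interval 2.26 to 2.79), whereas Aldh1a3 was 1.96 times as high in replicate 2 (1.88 to 2.04). Clmp and Slc1a1 were also higher in db/db replicate 1, by 1.28 times (1.16 to 1.40) and 1.41 times (1.30 to 1.53). In KO_db/db, Slc1a1 was 3.18 times as high in replicate 2 as in replicate 1 (1.70 to 6.48), in the same direction as Aldh1a3 at 1.60 times (1.30 to 1.99). The ratio for Clmp, 1.79 (0.818 to 4.33), spanned 1. Among db/+ libraries, Clmp was 10.7 times as high in replicate 1 as in replicate 2 (2.58 to 94.8). These intervals, like all count intervals here, are exact 95% intervals and cover counting error only.

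Because transcripts differ in length, levels of different genes were compared per kb of the longest coding transcript. In db/db, Slc1a1 stood at 9.84 and 7.0 CPM per kb, Gdf10 at 6.34 and 2.52 and Clmp at 6.30 and 4.94, so Slc1a1 exceeded both others in both libraries, while Gdf10 and Clmp overlapped. Bmp3 stood at 8.90 and 8.54 CPM per kb there, within the range of Slc1a1.

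The comparison of KO_db/db with db/db sets db/db β-cells with Cre and Aldh1a3 fl/fl beside db/db β-cells with Cre and Aldh1a3 fl/+. It is the contrast that chose the members, so their values are given without a test. The paper reports lower refed glucose and higher plasma insulin in the knockout mice than in db/db mice. Loss of the gene and milder glycaemia therefore cannot be told apart here. The log2 fold change was -8.46 for Gdf10 (SE 0.74), -5.43 for Clmp (SE 0.33) and -4.87 for Slc1a1 (SE 0.51). In this comparison 0.193% of 13486 tested genes were called lower (26 genes) and 0.126% higher (17 genes) at an adjusted p under 0.05 (quasi-likelihood test of edgeR, Benjamini-Hochberg). The fitted value of Gdf10 depends on the prior count that the fit adds, since KO_db/db held 4 counts in all against 1662 in db/db. The ratio of the summed counts, per library size, was 362 (95% exact interval 141 to 1331). The mean db/db level was 189 times the level of 3 counts in the shallower KO_db/db library, 567 times that of 1 count and 56.7 times that of 10 counts. Against 3 counts the ratio was 108 without db/db replicate 1 and 317 without KO_db/db replicate 1. The same ratio of summed counts was 42.1 for Clmp (30.3 to 60.3) and 27.2 for Slc1a1 (21.6 to 34.6).

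Leaving out each library in turn moved these log2 fold changes to between -8.98 and -7.65 for Gdf10, between -5.95 and -5.14 for Clmp and between -6.00 and -4.35 for Slc1a1. For Gdf10 the ends of the range came from leaving out db/db replicate 2 and replicate 1, the libraries with the lower and the higher level. For Slc1a1 the ends came from leaving out KO_db/db replicate 2 and replicate 1. Without KO_db/db replicate 1, the library with the highest acinar share, the values were -8.79, -5.14 and -4.35. With the acinar markers removed before scaling, they were -8.46, -5.43 and -4.87. The order of the 3 falls can be read only loosely: Clmp and Slc1a1 exchanged places without KO_db/db replicate 2, where Clmp stood at -5.95 and Slc1a1 at -6.00. The call that entered the choice was lost for all 3 members without db/db replicate 1, where 0 genes were called by edgeR (1826 at an unadjusted p under 0.05), and for Slc1a1 with a replicate block.

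**Figure D2:**
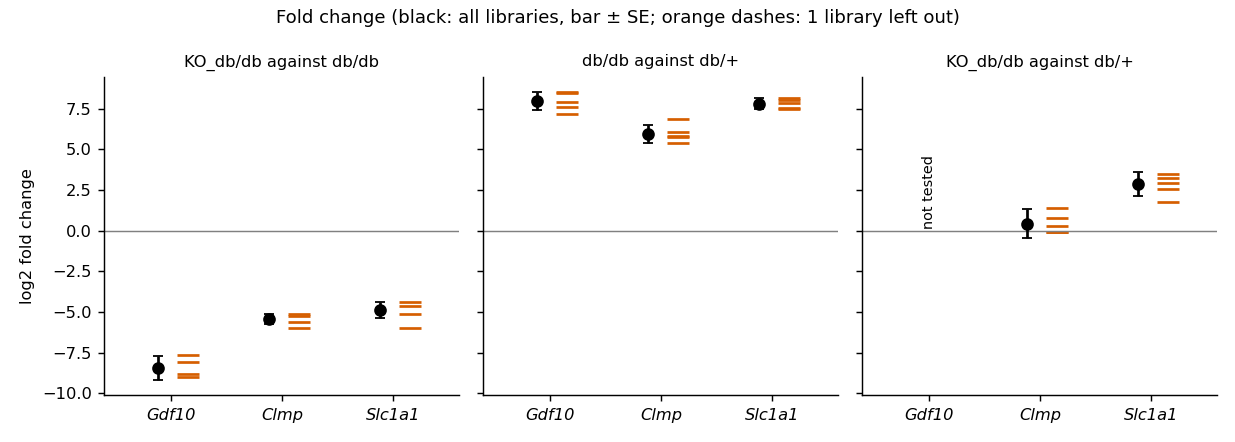
Log2 fold change of the 3 members in the 3 comparisons, with all libraries (black, bar ± SE) and with 1 library left out at a time (orange dashes). The members lie between -8.46 and -4.87 in KO_db/db versus db/db, between 5.92 and 7.97 in db/db versus db/+, and Slc1a1 alone lies clear of 0 in KO_db/db versus db/+, where Gdf10 was not tested.

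The comparison of db/db with db/+ asks what diabetes changes in β-cells with a working Aldh1a3 allele. It was not used to choose the members, but its db/db libraries were, and the choice favours genes that are high in them. All 3 members also passed the filter on low counts only through db/db. The p-values here are thus a description and add no support. All 3 members were called higher in db/db, in a comparison in which 19.9% of 13406 tested genes were called higher and 18.0% lower. Gdf10 rose by 7.97 on the log2 scale (SE 0.58, edgeR's quasi-likelihood test, adjusted p = 0.000515). Slc1a1 rose by 7.81 (SE 0.32, edgeR's quasi-likelihood test, adjusted p = 0.000105). Clmp rose by 5.92 (SE 0.55, edgeR's quasi-likelihood test, adjusted p = 0.000895). The median log2 fold change of all tested genes was 0.01.

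For each member both db/db libraries were higher than all 3 db/+ libraries. The fitted value of Gdf10 again depends on the prior count, with 7 counts over the db/+ libraries. The ratios of summed counts were 255 for Gdf10 (124 to 636), 232 for Slc1a1 (129 to 465) and 62.3 for Clmp (43.5 to 92.6). With 1 library left out the calls held, with log2 fold changes from 7.16 to 8.52 for Gdf10, 7.47 to 8.15 for Slc1a1 and 5.42 to 6.85 for Clmp, and adjusted p-values of edgeR's quasi-likelihood test no higher than 0.00477. Without db/+ replicate 3, the library with the Y-linked counts, the values were 8.52, 7.47 and 5.79. An exact permutation test on a single gene could not reach 0.05 in any of the comparisons, since its smallest two-sided p is 0.333 for 2 against 2 libraries and 0.200 for 2 against 3.

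The comparison of KO_db/db with db/+ asks what differs from lean β-cells in Lepr db/db β-cells that lack Aldh1a3. The paper found fasting glucose of the knockout mice comparable to that of db/+ mice. Its KO_db/db libraries also entered the choice of the members. Slc1a1 passed the filter on low counts only through KO_db/db, the group where it is higher. Its p-values here are thus a description and add no support. In this comparison 20.5% of 13228 tested genes were called higher and 17.9% lower. Slc1a1 was called higher, by 2.88 on the log2 scale (SE 0.75, edgeR's quasi-likelihood test, adjusted p = 0.0233), with a ratio of summed counts of 8.52 (4.50 to 17.8). This call rested on single libraries: it was lost without KO_db/db replicate 2 (1.79, adjusted p = 0.270), without db/+ replicate 2 (2.92, adjusted p = 0.0640) and without db/+ replicate 3 (2.56, adjusted p = 0.0517), all by edgeR's quasi-likelihood test.

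Clmp differed by 0.44 on the log2 scale (SE 0.89, edgeR's quasi-likelihood test, adjusted p = 0.723) and was not called. Its ratio of summed counts, 1.48, had an interval of 0.886 to 2.49, and its sign turned without KO_db/db replicate 2 (-0.0625) and without db/+ replicate 2 (-0.0491). Gdf10 did not pass the filter on low counts, so that neither a fold change nor a test is given. At 4 counts over the KO_db/db libraries and 7 over the db/+ libraries, a difference was not detectable at this depth.

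Across all 7 libraries, both db/db libraries lay above the other 5 for each member, as they did for 15.9% of the 13789 genes that passed the filter on all libraries. The lower db/db library exceeded the highest of the other 5 more than 10 times in 27 genes (0.196%), among them all 3 members, and the choice of members used 4 of the 7 libraries. The ratio of the lower db/db library to the highest other library was 95.6 times for Gdf10, the largest of the genes with a level above 0 outside db/db, 26.4 times for Clmp and 17.1 times for Slc1a1.

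Bmp3, the closest relative of Gdf10, was also highest in db/db, and its KO_db/db libraries lay above db/+. It measured 9.32 and 7.44 CPM in KO_db/db, 58.8 and 56.4 CPM in db/db, and 2.01, 1.13 and 0.309 CPM in db/+, with no overlap between groups. In KO_db/db versus db/db, Bmp3 fell by 2.77 on the log2 scale (SE 0.18, edgeR's quasi-likelihood test, adjusted p = 0.0191), a call lost without db/db replicate 1 (adjusted p = 0.0639). It rose by 5.65 in db/db versus db/+ (SE 0.50, edgeR's quasi-likelihood test, adjusted p = 0.000813) and by 2.89 in KO_db/db versus db/+ (SE 0.59, adjusted p = 0.0103), where the call was lost without KO_db/db replicate 1 (adjusted p = 0.0509). Whether the transcripts of Gdf10 and Bmp3 share sequence was not tested.

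Of 32 TGF-β superfamily ligands listed besides Gdf10, 11 passed the filter in KO_db/db versus db/db, and Bmp3 was the only one called (1 lower, 0 higher). In db/db versus db/+, 4 of 9 were higher and 2 lower. For this and the lists below, the shares over all tested genes were 19.9% higher and 18.0% lower in db/db versus db/+. They were 20.5% and 17.9% in KO_db/db versus db/+, and 0.126% and 0.193% in KO_db/db versus db/db. Bmp2, a bone morphogenetic protein named here after its values were seen, measured 2.25 and 2.02 CPM in db/db and at most 0.146 CPM in the other 5 libraries. Its log2 fold change was 5.68 in db/db versus db/+ (SE 0.95, edgeR's quasi-likelihood test, adjusted p = 0.00508), and -4.60 in KO_db/db versus db/db (SE 0.99, adjusted p = 0.116). Bmp2 passed the filter on low counts only through db/db, so these p-values add no support.

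Of 14 receptors, 1 of 11 tested was higher and 2 lower in db/db versus db/+, and 0 of 13 were called in KO_db/db versus db/db. The type I receptor Tgfbr1 fell by 1.06 in db/db and by 0.71 in KO_db/db versus db/+ (edgeR's quasi-likelihood test, adjusted p = 0.00139 and 0.00303). The type II receptor Bmpr2 rose by 0.47 and 0.64 and the type I receptor Bmpr1a fell by 0.34 in db/db, but the db/db call of Bmpr2 was lost without db/db replicate 2, db/+ replicate 1 or db/+ replicate 2 (adjusted p up to 0.0867) and that of Bmpr1a without any of db/db replicates 1 and 2 and db/+ replicates 1 and 2 (up to 0.155). The co-receptor Tgfbr3 rose by 1.03 in KO_db/db versus db/+ (adjusted p = 0.00369). Of the 8 SMAD genes, 1 of 6 tested was higher and 1 lower in db/db versus db/+. In KO_db/db versus db/+, 2 of 6 were higher and 0 lower, and 0 of 7 were called in KO_db/db versus db/db. Smad1, which relays bone morphogenetic protein signals, rose by 0.84 in db/db and 0.82 in KO_db/db versus db/+ (adjusted p = 0.00791 and 0.00652). The gene lower in db/db, named after its values were seen, was Smad3 (edgeR's quasi-likelihood test, adjusted p = 0.018). Smad3 measured 0.148 and 0.385 CPM in db/db and 2.21, 1.53 and 1.17 CPM in db/+.

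Of 13 antagonists, 3 of 8 tested were higher and 2 lower in db/db versus db/+. Bambi, a membrane-bound pseudoreceptor that blocks this signal, measured 223 and 289 CPM in db/db, 88.9 and 54.3 CPM in KO_db/db and 40.5, 34.9 and 38.1 CPM in db/+. The db/db libraries were the highest and the groups did not overlap. Bambi rose by 2.74 in db/db and by 0.93 in KO_db/db versus db/+ (edgeR's quasi-likelihood test, adjusted p = 0.000262 and 0.0131), and its log2 fold change in KO_db/db versus db/db was -1.83 (SE 0.29, adjusted p = 0.0844). That value was past the threshold without KO_db/db replicate 1 (-2.23, adjusted p = 0.0465) and by DESeq2 (adjusted p = 5.24e-09). The secreted antagonist Nbl1 rose by 1.56 and Twsg1, which binds bone morphogenetic proteins, fell by 0.66 in db/db (adjusted p = 0.00239 and 0.00547). Of 9 target genes of the pathway, 2 of 6 tested were higher in db/db, and Skil, a negative regulator of SMAD signalling, rose by 1.22 in KO_db/db versus db/+ (adjusted p = 0.00291).

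**Figure D3:**
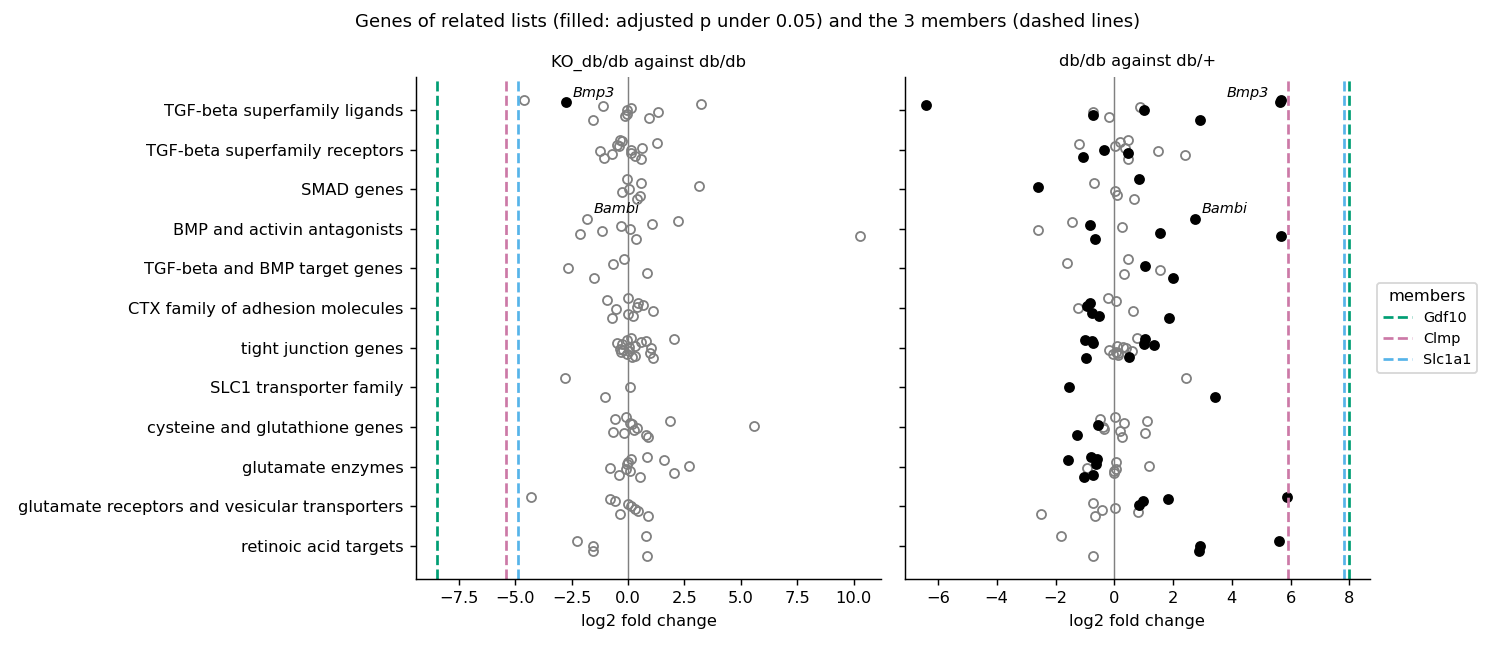
Log2 fold change of the tested genes of each related list (filled circles have an adjusted p under 0.05) in KO_db/db versus db/db (left) and db/db versus db/+ (right), with dashed lines at the 3 members. In the left panel Bmp3 is the only filled circle, and the members lie at -8.46, -5.43 and -4.87.

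Cxadr, the nearest relative of Clmp, was called in none of the 3 comparisons. It measured 22.5 and 20.5 CPM in KO_db/db, 22.1 and 20.6 CPM in db/db and 24.6, 26.2 and 22.2 CPM in db/+. KO_db/db overlapped both other groups, and the db/db and db/+ values adjoined at 22.1 and 22.2 CPM. Its log2 fold changes of 0.02, -0.21 and -0.17 in KO_db/db versus db/db, db/db versus db/+ and KO_db/db versus db/+ had SEs of 0.15, 0.12 and 0.12 and no call (edgeR's quasi-likelihood test, adjusted p = 0.943, 0.217 and 0.289). Per kb of transcript Cxadr stood at 3.84 and 3.60 CPM in db/db, below Clmp at 6.30 and 4.94, and at 3.57 to 4.56 CPM per kb in the other libraries, where Clmp was at 0.0175 to 0.187.

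Of the 12 other CTX family molecules, which join epithelial, endothelial or immune cells, 0 of 10 tested were called in KO_db/db versus db/db. In db/db versus db/+, 4 of 9 were lower and 1 higher. F11r, a junctional adhesion molecule, fell by 0.84 (edgeR's quasi-likelihood test, adjusted p = 0.00507). Gpa33 fell by 0.92 and Jam2 by 0.77, calls that were lost without db/db replicate 1 or db/+ replicate 2 for Gpa33 (adjusted p up to 0.0646) and without either db/db replicate or db/+ replicate 1 or 3 for Jam2 (up to 0.0993). In KO_db/db versus db/+, 3 of 10 were lower, among them Jam3 (-0.53) and F11r (-0.38), whose calls were lost without KO_db/db replicate 2, db/+ replicate 1 or db/+ replicate 2, and for F11r also without KO_db/db replicate 1 (adjusted p up to 0.158 and 0.112).

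Of 21 tight junction genes, 0 of 19 tested were called in KO_db/db versus db/db, and in db/db versus db/+ 4 of 18 were higher and 4 lower, shares near those of all genes. The claudin Cldn3 rose by 1.04 and the scaffold Magi1 by 1.34, and Cldn4 fell by 1.01 (edgeR's quasi-likelihood test, adjusted p = 0.00145, 0.0138 and 0.0132). The call of Magi1 was lost without db/db replicate 2 (0.0618) and that of Cldn4 without db/db replicate 1 (0.0535). In KO_db/db versus db/+, 9 of 19 were higher and 1 lower, against 20.5% higher and 17.9% lower of all tested genes. Magi1 stood at 1.69, the polarity gene Pard3 at 1.15 and Cldn12 at -1.19 (edgeR's quasi-likelihood test, adjusted p = 0.00502, 0.00254 and 0.00269). Cgnl1, a junction scaffold named after its values were seen, stood at 6.19 (edgeR's quasi-likelihood test, adjusted p = 0.00463). It measured 3.38 and 0.875 CPM in KO_db/db and at most 0.0410 CPM in db/+. Cgnl1 was higher in KO_db/db replicate 1, the library with the 8.64% acinar share, and stood at 4.92 without that library. The part of acinar RNA in the tight junction values was not tested. With 1 library left out, the 9 higher became 5 (without KO_db/db replicate 1, db/+ replicate 1 or db/+ replicate 2), and the 4 higher in db/db became 1 without db/db replicate 2 and 2 without db/+ replicate 1.

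Slc1a1 was the most abundant SLC1 transporter per kb in db/db and not in lean β-cells. In db/db it stood at 9.84 and 7.0 CPM per kb, over Slc1a4 at 0.852 and 2.61 and Slc1a5 at 1.67 and 2.12. In db/+ Slc1a4 was the highest and Slc1a1 the lowest of these, with Slc1a4 at 4.28, 6.80 and 3.98 CPM per kb, Slc1a5 at 0.0889 to 0.224 and Slc1a1 at 0.0181 to 0.0539. In KO_db/db, Slc1a4 (1.86 and 1.80) exceeded Slc1a1 (0.129 and 0.409), and Slc1a5 varied between 1.55 and 0.352. The glutamate transporters Slc1a2, Slc1a3, Slc1a6 and Slc1a7 stayed at 0 to 0.0782 CPM per kb in all libraries.

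**Figure D4:**
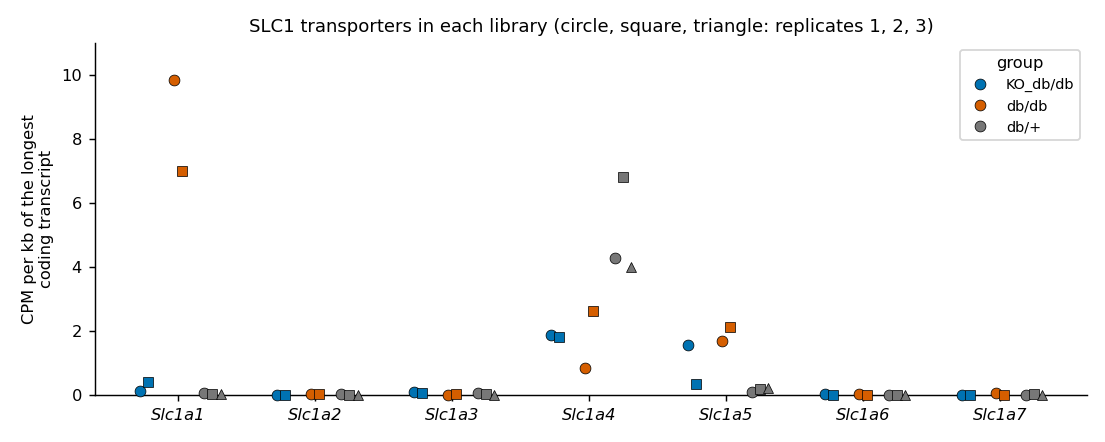
Level of the 7 SLC1 transporters in each library, in CPM per kb of the longest coding transcript, by group. Slc1a1 is highest in the db/db libraries (9.84 and 7.0), and Slc1a4 is highest in the db/+ libraries (3.98 to 6.80).

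Slc1a4 and Slc1a5, which carry neutral amino acids rather than glutamate, moved in opposite directions in db/db versus db/+. Slc1a5 rose by 3.43 (SE 0.42, edgeR's quasi-likelihood test, adjusted p = 0.00173). Slc1a4 fell by 1.55 (SE 0.48, adjusted p = 0.0426), a call lost without db/db replicate 1 (-0.96, adjusted p = 0.0744) and without any of the db/+ libraries (adjusted p up to 0.112). In KO_db/db versus db/+, Slc1a4 fell by 1.45 (adjusted p = 0.00644) and Slc1a5 rose by 2.46 (adjusted p = 0.0355), a call lost without KO_db/db replicate 1 (1.03, adjusted p = 0.373) or any db/+ library. Neither was called in KO_db/db versus db/db (Slc1a4 0.08 and Slc1a5 -1.01 on the log2 scale, adjusted p = 0.942 and 0.438 by edgeR's quasi-likelihood test). The log2 fold change of Slc1a2 was -2.79 there (adjusted p = 0.161) and 2.43 in db/db versus db/+ (adjusted p = 0.124), at no more than 0.457 CPM.

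Of 13 cysteine and glutathione genes, 0 of 12 tested were called in KO_db/db versus db/db and 2 of 11 were lower in db/db versus db/+. Slc3a2, a subunit shared by amino acid exchangers, fell by 1.27 and Gclm, a subunit of the enzyme that starts glutathione synthesis, by 0.57 (edgeR's quasi-likelihood test, adjusted p = 0.00124 and 0.0150), the latter lost without db/db replicate 1 or db/+ replicate 1 or 2 (up to 0.0537). In KO_db/db versus db/+, 3 of 12 were higher and 2 lower. The calls of Slc3a2 (-0.44), Gclm (-0.38) and the catalytic subunit Gclc (0.44) were each lost without at least 2 of the 5 libraries in turn. The other two, named after their values were seen, were Ggt1, which cleaves extracellular glutathione, at 8.14 (edgeR's quasi-likelihood test, adjusted p = 0.00531) and Cth, which makes cysteine from cystathionine, at 2.98 (adjusted p = 0.0295). Ggt1 measured 27.9 and 2.46 CPM in KO_db/db and at most 0.361 CPM elsewhere, and Cth 3.75 and 0.608 CPM in KO_db/db, each higher in replicate 1, the library with the 8.64% acinar share. The part of acinar RNA in these values was not tested. The call of Ggt1 held with any 1 library left out, and that of Cth was lost without KO_db/db replicate 1 (1.15, adjusted p = 0.391) or any db/+ library.

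Of 13 glutamate enzymes, 0 of 12 tested were called in KO_db/db versus db/db. In db/db versus db/+, 6 of 12 were lower and 0 higher, against 18.0% and 19.9% of all tested genes. Gad1, which makes GABA from glutamate, fell by 1.57, Psat1, of serine synthesis, by 1.02 and Abat, which breaks down GABA, by 0.78 (edgeR's quasi-likelihood test, adjusted p = 0.00280, 0.00726 and 0.0133). In KO_db/db versus db/+, the glutamine synthetase Glul fell by 1.69 and the asparagine synthetase Asns by 0.43 (adjusted p = 0.00160 and 0.0242), the latter lost without KO_db/db replicate 2 or db/+ replicate 2 (up to 0.106). Among the 12 enzymes tested there, 4 were lower and 2 higher. The 2 higher, named after their values were seen, were Gls2 (17.4 and 2.36 CPM in KO_db/db) and Gpt (12.8 and 2.46 CPM). Both were higher in replicate 1, the library with the 8.64% acinar share, and the part of acinar RNA was not tested. Of 26 glutamate receptors and vesicular transporters, 4 of 10 tested were higher in db/db versus db/+. The AMPA receptor subunits Gria2 and Gria3 stood at 1.84 and 0.98 and the kainate receptor subunit Grik5 at 0.85 (edgeR's quasi-likelihood test, adjusted p = 0.000844, 0.00527 and 0.00781). Gria2 and Grik5 were also higher in KO_db/db versus db/+, by 1.07 and 1.02 (adjusted p = 0.00315 and 0.00146), and 0 of 9 were called in KO_db/db versus db/db.

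Of 11 retinoic acid targets, 5 were tested, and none was called in KO_db/db versus db/db (median log2 fold change -1.56) whereas 3 were higher in db/db versus db/+ (median 2.89). They included Dhrs3, a retinaldehyde reductase, and Hic1, a transcriptional repressor, named after their values were seen.

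Neighbouring genes were examined in the same fits, where the choice of the members as the largest falls fixes that they fell more than their neighbours in KO_db/db versus db/db. Within 500 kb of the start of Gdf10, 9 genes were tested in KO_db/db versus db/db, with log2 fold changes from -2.39 to 0.46. Around Clmp, 6 genes ranged from -1.46 to 0.03, and around Slc1a1, 9 genes ranged from -1.40 to 0.87. None of these was called by the edgeR fit of this pair, though Rbp3, Scn3b and Spata6l were past the threshold under other settings. In db/db versus db/+, 1 of 8, 3 of 6 and 5 of 9 neighbours were higher and none lower, against 19.9% higher and 18.0% lower of all tested genes. Those higher around Slc1a1 included Spata6l, an overlapping gene that may share its reads. In KO_db/db versus db/+, 1 of 8, 3 of 6 and 2 of 8 were higher, and 1 around Slc1a1 was lower, against 20.5% and 17.9% of all tested genes.

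The nearest tested gene downstream of Gdf10 was Rbp3, an interphotoreceptor retinoid-binding protein, whose start lies 30.4 kb away. Rbp3 measured 2.16 and 6.83 CPM in db/db, 0.855 and 0.851 CPM in KO_db/db and 0.983, 0.727 and 2.27 CPM in db/+, where one db/+ library exceeded the lower db/db library. Its log2 fold change was -2.39 in KO_db/db versus db/db (SE 0.63, edgeR's quasi-likelihood test, adjusted p = 0.144; DESeq2, adjusted p = 0.00742). Gdf2, the ligand gene that starts 17.5 kb downstream of Gdf10, had 1 count in all libraries together. Upstream, the nearest tested gene was Mapk8, a stress kinase, whose start lay at -476.4 kb, with 13.4 to 20.9 CPM in all libraries.

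Clmp lies between Gramd1b, which starts at -154.6 kb, and the chaperone gene Hspa8, which starts 115 kb downstream. Gramd1b, a sterol transfer protein, rose by 1.32 in db/db and 1.00 in KO_db/db versus db/+ (edgeR's quasi-likelihood test, adjusted p = 0.00256 and 0.00634). Scn3b, a sodium channel subunit named after its values were seen, starts at -416.7 kb and measured 11.7 and 15.0 CPM in db/db, 4.19 and 5.42 CPM in KO_db/db and 2.29, 2.87 and 1.96 CPM in db/+. These groups did not overlap and stood in the order db/db, KO_db/db, db/+. Scn3b rose by 2.47 in db/db (SE 0.23, edgeR's quasi-likelihood test, adjusted p = 0.000849) and by 1.03 in KO_db/db (SE 0.27, adjusted p = 0.0245) versus db/+, the latter lost without either KO_db/db library, db/+ replicate 1 or db/+ replicate 3 (adjusted p up to 0.127), and its log2 fold change in KO_db/db versus db/db was -1.46 (SE 0.24, adjusted p = 0.0852). For that fall of Scn3b, DESeq2 gave an adjusted p of 0.000238, and edgeR's quasi-likelihood test with all 7 libraries in 1 fit gave 0.0257. Hspa8 measured 471 to 830 CPM over the libraries with no call. Upstream of Slc1a1, Glis3, a transcription factor of β-cells, measured 166 and 88.6 CPM in KO_db/db, 44.5 and 96.6 CPM in db/db and 39.4, 43.9 and 54.1 CPM in db/+. Glis3 was higher by 1.48 in KO_db/db versus db/+ (edgeR's quasi-likelihood test, adjusted p = 0.00680). The pseudogene Gm5822, inside Slc1a1 on the other strand, stayed at 0.774 to 1.87 CPM.

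**Figure D5:**
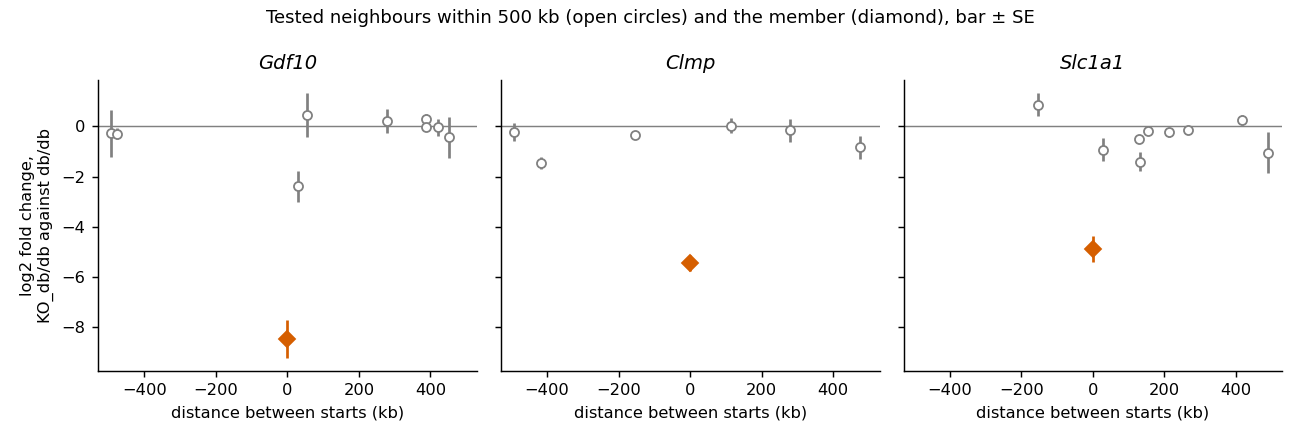
Log2 fold change (± SE) in KO_db/db versus db/db of the tested genes whose start lies within 500 kb of a member's start, against the distance between starts. The lowest tested neighbours are Rbp3 near Gdf10 (-2.39), Scn3b near Clmp (-1.46) and Spata6l near Slc1a1 (-1.40), and the members (diamonds) were chosen by this contrast.

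The count of Slc1a1 can share reads with a gene on the opposite strand. Spata6l, listed as 4430402I18Rik in GENCODE M21, overlaps Slc1a1 by 20919 bases, and 1167 of the 3770 distinct 31-mers of the Slc1a1 transcript also occur in its transcripts. Whether the counting used strand is not given in the sources used here, so reads from the shared part cannot be told apart. Spata6l had 182 and 178 counts in db/db, 32 and 94 in KO_db/db and 51, 45 and 60 in db/+. It measured 5.39 and 4.28 CPM in db/db, 1.30 and 2.29 CPM in KO_db/db and 2.09, 1.64 and 2.06 CPM in db/+, with the db/db libraries highest. It rose by 1.30 in db/db versus db/+ (SE 0.27, edgeR's quasi-likelihood test, adjusted p = 0.0104), lost without db/db replicate 1 (adjusted p = 0.0564), and its log2 fold change was -1.40 in KO_db/db versus db/db (adjusted p = 0.153).

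Slc1a1 had 6.94 and 6.22 times the counts of Spata6l in db/db, 0.375 and 0.681 times in KO_db/db and 0.0980, 0.0889 and 0.0333 times in db/+. The low Slc1a1 counts outside db/db were thus smaller than those of the overlapping gene, and the part of shared reads in them was not tested. For Clmp, 8.44% of 4124 31-mers occur in Gm16096, an opposite-strand transcript. For Gdf10, 1.07% of 5152 occur in genes other than the members and Bmp3, which were not compared with each other.

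The genes most like each member over the 7 libraries, by Pearson's r of log2 CPM among 7653 genes that averaged at least 10 CPM, were Rnf215 (0.995), Ttr (0.993), Plpp6 (0.987), Rps13 (0.981) and Slc66a2 (0.980) for Gdf10. For Clmp they were Eif2b2 (0.988), Serpini1 (0.984), Mtarc2 (0.978), Kif3c (0.977) and Rhob (0.974), and for Slc1a1 Lgals3bp (0.994), Paqr9 (0.993), Slc38a4 (0.992), Rbm47 (0.991) and Rbm28 (0.990). Between members r was 0.960 for Clmp and Gdf10, 0.947 for Clmp and Slc1a1 and 0.918 for Gdf10 and Slc1a1. These values describe 7 libraries of which 2 stood high, share library depth and sort, and carry no p.

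The genes like the members in shape differed from them in size. Against db/+, Ttr, a carrier of thyroxine and retinol-binding protein that is abundant in α-cells, rose by 1.66 in db/db, Rps13 by 3.50 and Rnf215 by 1.03. For the genes like Clmp the log2 fold changes in db/db were 0.25 to 1.07, with Eif2b2 not called (0.25, edgeR's quasi-likelihood test, adjusted p = 0.0967). For those like Slc1a1 they were 0.49 to 2.06, the largest for Paqr9 and followed by the secreted glycoprotein Lgals3bp at 1.64. Among these 15 genes, the db/db calls of Plpp6 (without db/+ replicate 1 or 2), Kif3c (without db/db replicate 2 or any db/+ library) and Rbm28 (without db/db replicate 1 or any db/+ library) were lost, with adjusted p-values of edgeR's quasi-likelihood test up to 0.0583, 0.0748 and 0.0863. Plpp6, a lipid phosphatase among the genes most like Gdf10, starts 128.9 kb downstream of Slc1a1 and measured 60.3 and 54.9 CPM in db/db against 38.8 to 42.2 CPM elsewhere.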

How the data were processed

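Poly-A RNA of sorted β-cells was sequenced as paired ends. The authors deposited estimated counts per gene from kallisto 0.44.0 (bcl2fastq 2.19, GRCm38, per the submitters' processing notes), as whole numbers without normalization. The annotation release and strand setting are not given in the sources used here. Groups came from the sample titles. Of 35013 symbols, 34222 matched GENCODE M21.

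The 3 pairwise comparisons each used only the libraries compared, in R 4.3.3 with edgeR 4.0.16 (filterByExpr with a minimum count of 10, TMM, quasi-likelihood test, Benjamini-Hochberg adjustment over all tested genes, threshold 0.05). SE is the fold change over the root of F. Alternatives were RLE scaling, DESeq2 1.42.0 (the tool of the study), no filter, all libraries in 1 fit, a replicate block, no acinar markers and each library left out. The code was tested on simulated data. Replicates differed by more than sampling noise, and none was counted as a copy.

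The members and gene lists were chosen with earlier results of these data known. Named genes are, per list and comparison, at most 3 called genes of at least 10 CPM with the largest fold changes, all SLC1 genes, Cxadr, Bmp3, Aldh1a3, the nearest tested neighbours and the 5 genes most like each member (without predicted genes and pseudogenes). Some genes that this rule names are not reported here.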

Additional observations from a re-analysis of the deposited data

How the results depend on the processing

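The members' fold changes in KO_db/db against db/db kept their direction under every alternative run, but the call that entered the choice was lost for all 3 without db/db replicate 1 and for Slc1a1 with the replicate block. Their calls in db/db against db/+ held under every alternative run, though each run used db/db libraries that entered the choice. For Clmp in KO_db/db against db/+, leaving out 1 library gave log2 fold changes from -0.0625 to 1.41. For Slc1a1 in that comparison it gave 1.79 to 3.46, and the fit with a replicate block gave 2.38 (edgeR's quasi-likelihood test, adjusted p = 0.10). Adjusted p-values of Slc1a1 there ran from 0.00937 to 0.270 over the alternatives. For Gdf10 in KO_db/db against db/+ no value is given under any alternative, since both groups lay near 3 counts per library.

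The count of genes called in KO_db/db against db/db was 43 of 13486 tested. It was 1396 by DESeq2 and 1570 by edgeR without the filter, each over 19621 genes, 818 with all libraries in 1 fit and 22 with the replicate block, and 0 (without db/db replicate 1) to 225 (without KO_db/db replicate 2) with 1 library left out. It was 86 without KO_db/db replicate 1 and 212 without db/db replicate 2. Where edgeR called 0 genes, 1826 had an unadjusted p under 0.05. Leaving out 1 library gave 3331 to 4394 calls in db/db against db/+ (5069 with all) and 3060 to 4725 in KO_db/db against db/+ (5081 with all). Where 1 library was left in a group, it was assumed to vary like the other group. The causes were not tested.

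Fold changes near 0 turned sign with 1 library left out in KO_db/db against db/db, with a range of -0.0494 to 0.10 for Cxadr and -0.51 to 1.11 for Slc1a4. The mouse numbers were not taken as pairs, since deviations of same-numbered libraries correlated between -0.102 and 0.0759. Counts of list genes called also moved with 1 library left out. In db/db against db/+ they ran from 0 to 2 for lower ligands, 0 to 2 for higher and 1 to 2 for lower receptors, 1 to 2 for lower antagonists, 0 to 2 for higher targets, 2 to 3 for lower and 0 to 1 for higher CTX genes and 1 to 2 for lower cysteine and glutathione genes. In KO_db/db against db/+ they ran from 0 to 3 for lower CTX genes, 1 to 3 for higher and 0 to 2 for lower cysteine and glutathione genes. In KO_db/db against db/db, 3 glutamate enzymes, 1 antagonist and 1 cysteine gene were higher without KO_db/db replicate 2, 1 antagonist was lower without KO_db/db replicate 1, and 0 ligands were lower without db/db replicate 1. By DESeq2 that comparison had 3 lower and 1 higher ligands, 2 lower and 2 higher antagonists, 1 higher SMAD gene, 1 higher CTX gene, 3 higher tight junction genes, 2 higher cysteine and glutathione genes, 3 higher glutamate enzymes, 2 lower glutamate receptors or vesicular transporters and 1 lower retinoic acid target. Groups of 2 and 3 libraries limit every value here, and outlying libraries within a group cannot be tested.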

Other observations

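Beside the members, other genes stood far above the remaining libraries in db/db β-cells, and they are named here after their values were seen. Slc5a10, a sodium-driven sugar transporter, had at least 42.3 CPM in db/db and at most 0.722 CPM in the other 5 libraries. Gpc6, a cell-surface heparan sulfate proteoglycan, had at least 9.11 CPM in db/db and at most 0.462 CPM elsewhere. Cck, the precursor of the gut hormone cholecystokinin, had at least 19.2 CPM in db/db and at most 1.65 CPM elsewhere.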
